A study of Mus musculus with 20 samples.

Results

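The miR-17-92 cluster is a set of microRNA (miRNA) hairpins carried by the mouse non-coding transcript Mir17hg. Its 10 mature arms described here were taken by name: mmu-miR-17-5p, mmu-miR-17-3p, mmu-miR-18a-5p, mmu-miR-18a-3p, mmu-miR-19a-3p, mmu-miR-20a-5p, mmu-miR-20a-3p, mmu-miR-19b-3p, mmu-miR-92a-1-5p and mmu-miR-92a-3p. The species prefix is dropped below. They are 10 of the 1063 miRNAs listed for both cell lines of the study, and all 10 passed the filter on low counts, which left 813 miRNAs to test. Small RNA was sequenced from female (PGK) and male (E14) mouse embryonic stem cells (ESC) as they were converted to epiblast stem cells (EpiSC), the primed pluripotent state. In each line, cells were taken at day 0 in 2i medium, then at day 4, day 10, days 19 to 23 and late. The cells from day 4 on were grown on fibronectin in N2B27 medium with added Fgf2 and Activin A. Days 19 to 23 were days 23 and 21 in female cells and days 21 and 19 in male cells. Late was day 29 in both female libraries and days 27 and 30 in the male ones. Each of the 10 groups held 2 libraries, from differentiation experiments 2 and 3 of the labels, and paired values below are given in that order. The labels give no genotype or transgene. Each sex is 1 cell line, so sex and line cannot be told apart. The day 0 samples of experiment 3 carry, in both lines, a cell-type label for differentiating cells, and they were grouped by their day label.

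The cluster is transcribed as 1 primary RNA, from which Drosha and Dicer cut the hairpins. Each hairpin yields a 5p and a 3p strand. Usually 1 of them is the guide, which is loaded into Argonaute, and the other is the passenger, which is mostly degraded. A guide finds its target mRNAs mainly through its seed, bases 2 to 8. The cluster is known as a target of Myc and as a promoter of proliferation and survival, with Bim and p21 among its targets, and its loss in mice is lethal around birth. Related guides come from the miR-106a-363 cluster on the X chromosome and the miR-106b-25 cluster hosted by Mcm7.

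The guides fall into 4 seed families. Their sequences are shown with the nearest relatives because they decide which counts can be tied to Mir17hg. All are from RefSeq (GRCm38.p6), where all 10 arms were found, with the seed in capitals.
miR-17-5p: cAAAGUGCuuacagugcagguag
miR-20a-5p: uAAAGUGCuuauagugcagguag
miR-106a-5p, X-linked: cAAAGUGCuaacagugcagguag
miR-20b-5p, X-linked: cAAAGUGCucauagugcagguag
miR-18a-5p: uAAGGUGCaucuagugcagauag
miR-18b-5p, X-linked: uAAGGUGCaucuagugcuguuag
miR-19a-3p: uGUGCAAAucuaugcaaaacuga
miR-19b-3p: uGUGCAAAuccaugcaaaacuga
miR-92a-3p: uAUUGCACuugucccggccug
miR-25-3p, from Mcm7: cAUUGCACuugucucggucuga

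With positions counted from 1 at the 5′ end, miR-17-5p differs from miR-20a-5p by C1U and C12U. From X-linked miR-106a-5p it differs by U10A alone. Between miR-18a-5p and miR-18b-5p the changes are A18U and A20U, and miR-19a-3p differs from miR-19b-3p by U11C. Counts of such close relatives can be exchanged between them where reads are short or carry an error, and the authors' handling of this is unknown. The 6 hairpins lie in the order Mir17, Mir18, Mir19a, Mir20a, Mir19b-1 and Mir92-1 within 836 bases, at chr14:115043671-115044506 on the plus strand of GRCm38. All 6 are in exon 2 of Mir17hg, a lincRNA gene.

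For the last pair of hairpins the guide does not name its locus. RefSeq gives miR-19b-3p and miR-92a-3p the same sequence from chromosome 14 and from the X-linked cluster. The 5p strands differ between the copies, so they can be told apart by locus.
miR-92a-1-5p, chromosome 14: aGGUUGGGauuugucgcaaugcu
miR-92a-2-5p, chromosome X: aGGUGGGGauugguggcauuac
miR-19b-1-5p, chromosome 14: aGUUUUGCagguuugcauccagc
miR-19b-2-5p, chromosome X: aGUUUUGCagauuugcaguucagc

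Of all counts of the miR-92a 5p strands, 99.37% to 99.9% belonged to the chromosome 14 copy in the 20 libraries. At female day 0, for example, miR-92a-1-5p had 9314 and 6808 counts, beside 13 and 7 for miR-92a-2-5p. For miR-19b the chromosome 14 copy made up 22.84% to 70.15%, on only 18 to 110 counts of miR-19b-1-5p a library. Such a share counts surviving passenger strands, which need not mirror the guides made by each locus.

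The libraries held 7112398 to 18031067 miRNA counts, so that 3 counts corresponded to 0.166 to 0.422 CPM, counts scaled to a common library total. No member had fewer than 167 counts in any library. Levels below are CPM scaled with TMM, a factor per library from edgeR. Naive markers (miR-291a-3p, miR-294-3p and miR-295-3p) summed to 110500 to 127900 CPM at day 4 against 160000 to 220600 CPM at day 0. Primed markers (miR-302a-3p, miR-302b-3p and miR-302d-3p) summed to 8177 to 19720 CPM at day 4 against 153.6 to 533.3 CPM at day 0, so both sets moved with the labelled state. Markers of other cells were highest at day 0. The 3 let-7 arms of differentiated cells, all detected, summed to 546.2 to 1672 CPM at day 4 and 576.1 to 1192 CPM late, against 12110 to 33930 CPM at day 0. The fibroblast markers (miR-143-3p, miR-199a-3p and miR-214-3p) summed to 344.8 to 2198 CPM at day 4 and 1197 to 3013 CPM late, against 3196 to 8770 CPM at day 0, with miR-214-3p at 0 in all day 0 and day 4 libraries. Both lists move with every comparison against day 0 below, and their part in the results was not tested. In bulk samples, fewer cells that make a miRNA and less of it per cell cannot be told apart. The labels say no more of the replicates than the differentiation experiment. The p-values thus measure the spread between experiments within a line, part of which may be technical.

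miR-92a-3p dominated the cluster. It made up 87.7% to 95.34% of the counts of the 10 arms and, on its own, 3.547% to 17.51% of all miRNA counts of a library. Its mean over the 20 libraries was 99175 CPM. The next members by mean level were miR-19b-3p (2624 CPM), miR-92a-1-5p (2264 CPM) and miR-17-5p (1359 CPM). Then came miR-20a-5p (692 CPM), miR-19a-3p (671 CPM) and miR-18a-5p (473 CPM). The passengers miR-17-3p (254 CPM), miR-18a-3p (127 CPM) and miR-20a-3p (46.2 CPM) were lowest. Only miR-92a-3p was above all other arms in every library. The ranges of neighbours in the rest of this order overlapped, such as 1634 to 4310 CPM for miR-19b-3p and 740 to 6432 CPM for miR-92a-1-5p. These mature RNAs have nearly the same length, but how well each was ligated and read is not known.

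**Figure D1:**
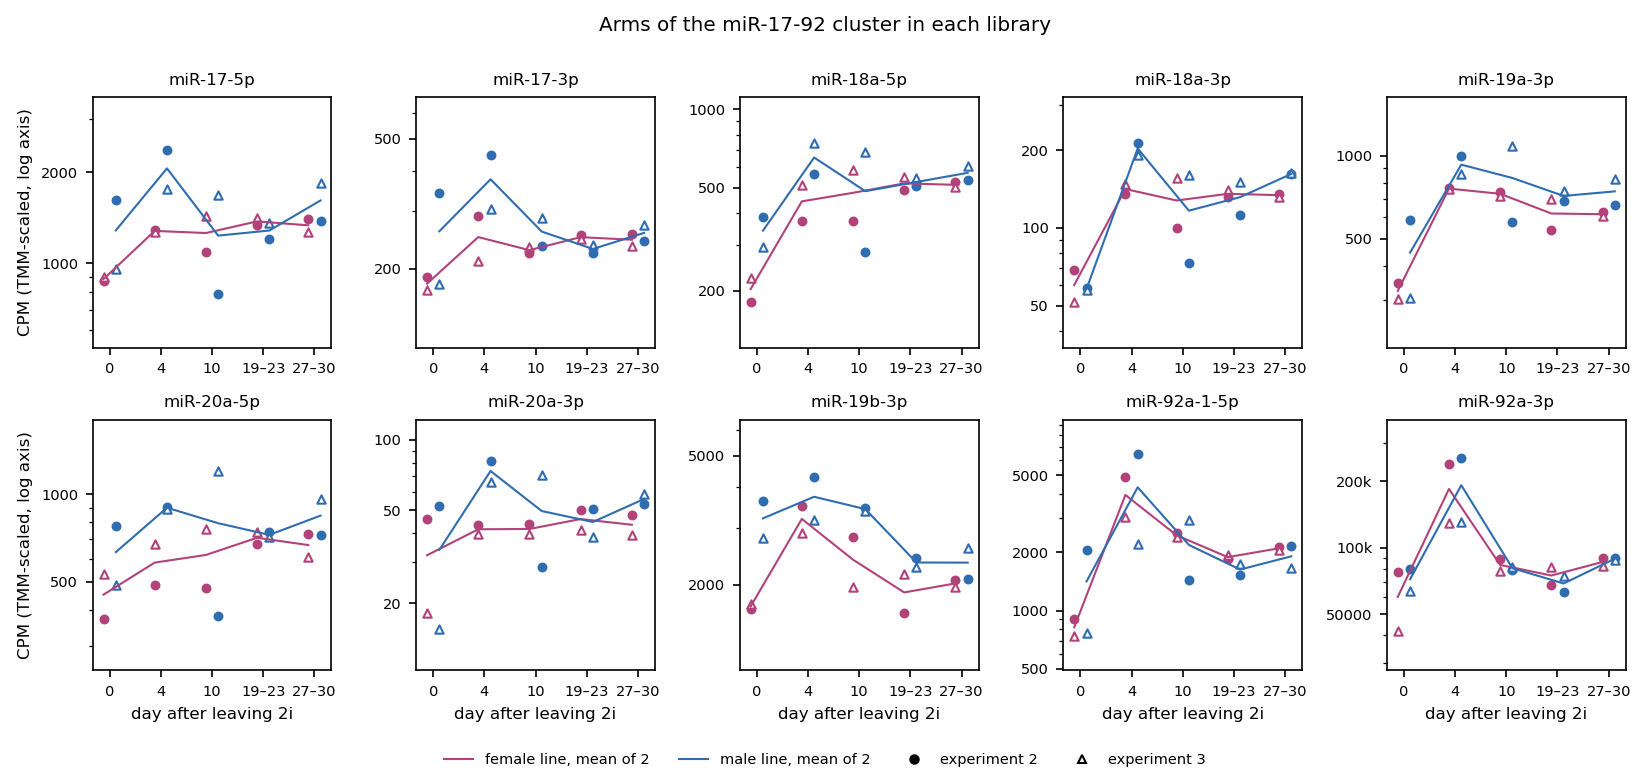
Level of each arm (TMM-scaled CPM, log axis) by day after leaving 2i, in the order of the hairpins, with female points left of male points at each stage; points are libraries of experiment 2 (circles) and experiment 3 (triangles), and lines join means of 2. The 4 day 4 libraries of miR-92a-3p lie between 129560 and 254150 CPM, above all others, and the male day 10 libraries of several arms lie far apart.

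At day 4, both arms of miR-92a were higher than at day 0 in both lines. miR-92a-3p, a guide of the miR-25 and miR-92 seed family, had in female cells 77891 and 41753 CPM at day 0, 240080 and 129560 CPM at day 4, 88853 and 78143 CPM at day 10, 67890 and 81674 CPM at days 19 to 23 and 89328 and 82919 CPM late. Male cells had 79922 and 63892 CPM at day 0, 254150 and 130170 CPM at day 4, 79521 and 81894 CPM at day 10, 63211 and 74389 CPM at days 19 to 23 and 89933 and 88319 CPM late. On this TMM scale all 4 day 4 libraries were above all 16 others. As a plain share of all miRNA counts, the female day 4 library of experiment 3 (10.86%) was below the male late libraries (12.04% and 11.86%). The log2 change at day 4 was 1.63 ± 0.36 (SE) for female cells, 3.09-fold (edgeR quasi-likelihood test with Benjamini-Hochberg adjustment, adjusted p = 0.00248). For male cells it was 1.42 ± 0.36, 2.67-fold (edgeR adjusted p = 0.00581). Within experiments 2 and 3 the level was 3.08-fold and 3.10-fold higher at day 4 in female cells, and 3.18-fold and 2.04-fold higher in male cells. Single libraries decided whether it passed. The female call was lost without the day 0 library of experiment 3 (0.78, edgeR adjusted p = 0.101) or the day 4 library of experiment 2 (0.93, adjusted p = 0.0634). The male call was lost without the same libraries of that line (0.98, edgeR adjusted p = 0.0875, and 0.63, adjusted p = 0.18).

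miR-92a-1-5p, the passenger strand of the chromosome 14 copy, had in female cells 901 and 740 CPM at day 0, 4867 and 3026 CPM at day 4, 2498 and 2392 CPM at day 10, 1843 and 1929 CPM at days 19 to 23 and 2133 and 2057 CPM late. Every female library from day 4 on was above both at day 0. Male cells had 2062 and 765 CPM at day 0, 6432 and 2207 CPM at day 4, 1436 and 2927 CPM at day 10, 1528 and 1728 CPM at days 19 to 23 and 2146 and 1663 CPM late. There, both day 4 libraries were above day 0, and the later groups overlapped with day 0. The log2 change at day 4 was 2.27 ± 0.53 in female cells, 4.81-fold (edgeR adjusted p = 0.00354), and 1.61 ± 0.52 in male cells, 3.06-fold (adjusted p = 0.0203). Without the female day 0 library of experiment 3 the female change was 1.68 (edgeR adjusted p = 0.0654). The male call was lost without the male day 0 library of experiment 3 (0.77, edgeR adjusted p = 0.279) or the male day 4 library of experiment 2 (0.41, adjusted p = 0.566). It was also lost without the female library of experiment 2 at day 4 (1.32, adjusted p = 0.0514) or day 10 (1.32, adjusted p = 0.0562), and with the male line fitted alone (1.32, edgeR adjusted p = 0.11).

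Counted over the cluster, 6 of 10 arms rose and 0 fell at day 4 in female cells, where 39.1% of all tested miRNAs were called (24.5% higher and 14.6% lower). In male cells 4 of 10 rose and 0 fell, where 43.4% of all were called (25.1% higher and 18.3% lower). The median log2 change of the 10 arms was 1.01 in female and 1.0 in male cells, beside 0.03 and 0.09 over all tested miRNAs. Besides the arms of miR-92a, the female calls were miR-18a-5p (1.12), miR-18a-3p (1.23), miR-19a-3p (1.23) and miR-19b-3p (0.90). The male ones were miR-18a-3p (1.81) and miR-19a-3p (1.06). Of these, male miR-18a-3p kept its call under all 9 other settings and without any 1 of the 20 libraries. The others depended on the processing: of 9 other settings, female miR-18a-5p passed under 2, miR-19b-3p under 3, miR-18a-3p under 4 and miR-19a-3p under 5, and male miR-19a-3p under 2. They also depended on single libraries. With 1 left out, the female calls held in 3, 4, 5 and 7 of 20 fits, in the same order. Male miR-19a-3p held in 6 of 20. Among the removals that lost a call were libraries of other stages or of the other line. The balance over all miRNAs at female day 4, 199 higher and 119 lower, was 154 and 166 when counts were scaled by their totals and 165 and 174 by their upper quartiles. In both cases 2 arms were called, those of miR-92a. At male day 4 it was 204 and 149, against 159 and 186 with RLE scaling. With TMM no arm of miR-17 or miR-20a was called against day 0 at any stage in either line; with total-count scaling miR-17-3p passed at female days 19 to 23 (edgeR adjusted p = 0.0418). Without the male day 0 library of experiment 2, miR-20a-3p passed in male cells at day 4 (1.91, edgeR adjusted p = 0.0326) and late (1.8, adjusted p = 0.0479), where the changes with all libraries were 1.12 and 0.72.

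**Figure D2:**
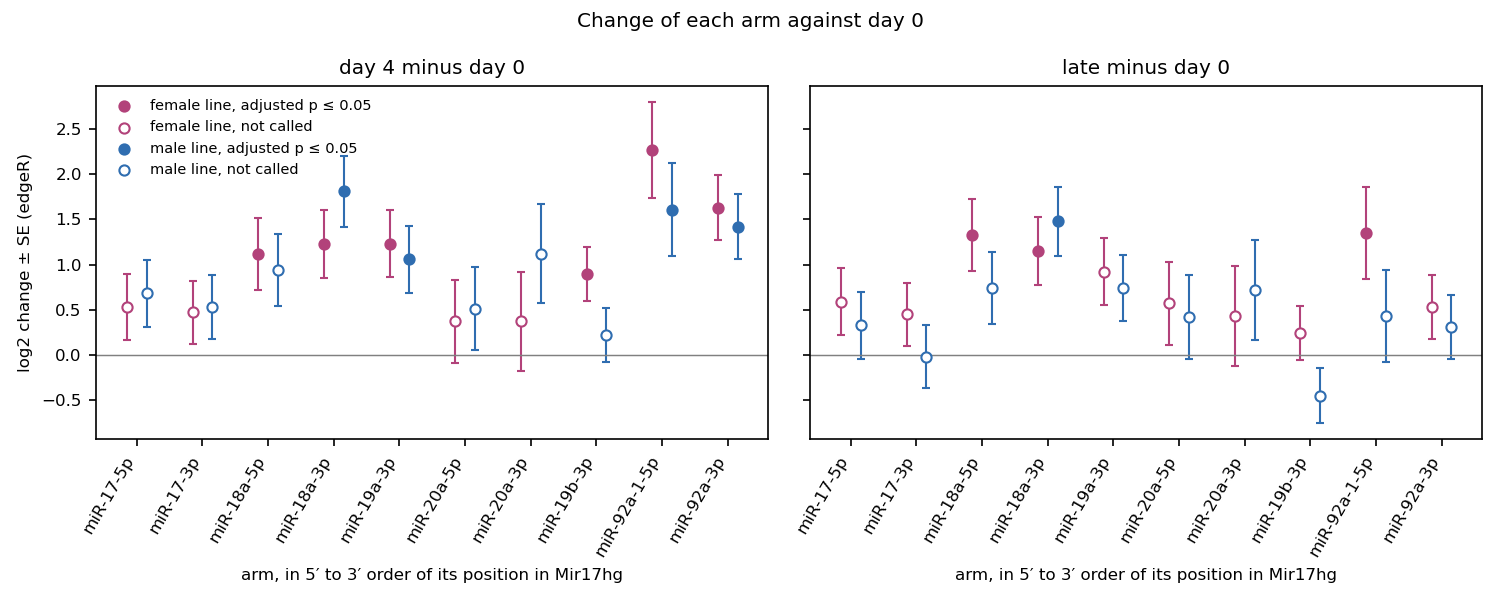
Log2 change of each arm against day 0 of its line (edgeR, TMM scaling, bars are SE, n = 2 libraries per group), female left of male, at day 4 (left panel) and late (right panel), with filled points for an adjusted p of at most 0.05. At day 4 the arms of miR-92a and male miR-18a-3p have the largest called changes (1.42 to 2.27), and late the filled points are both female arms of miR-18a, male miR-18a-3p and female miR-92a-1-5p.

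After day 4, miR-92a-3p was lower again. Against day 4 its log2 change in female cells was -1.15 at day 10 (edgeR adjusted p = 0.0696), -1.31 at days 19 to 23 (adjusted p = 0.025) and -1.10 late (adjusted p = 0.0608), each ± 0.36 (SE). In male cells it was -1.25 (edgeR adjusted p = 0.0438), -1.48 (adjusted p = 0.015) and -1.11 (adjusted p = 0.0578), with the same SE. Thus miR-92a-3p passed at days 19 to 23 in both lines and at day 10 in male cells, and no other arm was called against day 4. In female cells 6.52% of all miRNAs were called at day 10 (0.492% higher, 6.03% lower), 15.5% at days 19 to 23 (4.43% higher, 11.1% lower) and 9.72% late (3.32% higher, 6.4% lower). In male cells 8.12% were called at day 10 (4.55% higher, 3.57% lower), 17.6% at days 19 to 23 (7.26% higher, 10.3% lower) and 9.96% late (4.43% higher, 5.54% lower). The male day 10 call was the least stable, kept under 2 of 9 other settings and without 4 of the 20 single libraries. Where edgeR called 0 arms, 1 had an unadjusted p under 0.05 at female day 10, and 2 in female and 3 in male cells late, and DESeq2 called 0. With the experiment as a block, miR-92a-3p also passed late, at -1.06 in both lines (edgeR adjusted p = 0.0295 for female and 0.0298 for male cells), and at female day 10 (-1.11, adjusted p = 0.0317). With total-count scaling the change at days 19 to 23 was -0.41 in female cells (edgeR adjusted p = 0.299) and -0.68 in male cells (adjusted p = 0.108). Without the day 4 library of experiment 2 of the line, it was -0.79 in female cells (edgeR adjusted p = 0.241) and -0.74 in male cells (adjusted p = 0.264). In all, the call at days 19 to 23 was lost without 11 of 20 single libraries in female cells and 3 of 20 in male cells. Its sign stayed negative under all 9 other settings in both lines. The balance over all miRNAs against day 4 turned with the scaling. At days 19 to 23 it was 36 higher and 90 lower in female cells with TMM, 109 and 43 with total counts and 88 and 48 with upper quartiles. In male cells it was 59 and 84 with TMM, 84 and 34 with RLE, 111 and 21 with total counts and 71 and 31 with upper quartiles. Late it was 27 and 52 in female cells with TMM, 88 and 45 with total counts and 58 and 45 with upper quartiles. Male cells had 36 and 45 late with TMM, 78 and 33 with RLE and 86 and 24 with total counts. At day 10 it was 4 and 49 in female cells with TMM, 27 and 34 with total counts and 45 and 35 with upper quartiles. Male cells had 37 and 29 at day 10 with TMM, 55 and 16 with RLE and 36 and 14 with upper quartiles. Between late and day 10, 0 arms were called in either line by edgeR or DESeq2, with 0 at an unadjusted p under 0.05, where edgeR called 0.492% of all miRNAs in female cells (all lower) and 0.738% in male cells (0.369% each way).

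As a plain share of all miRNA counts, miR-92a-3p took 13.23% and 10.86% at female day 4 against 6.518% and 3.547% at female day 0. It took 17.51% and 13.19% at male day 4 against 6.474% and 5.681% at male day 0. Late, the share was 9.402% and 9.89% in female and 12.04% and 11.86% in male cells, above both day 0 libraries of the line. The TMM-scaled late change was 0.53 ± 0.35 in female cells (edgeR adjusted p = 0.244) and 0.31 ± 0.35 in male cells (adjusted p = 0.516). With total-count scaling it was 0.94 (edgeR adjusted p = 0.0118) and 0.98 (adjusted p = 0.0112). That scaling moved the median change of all miRNAs to 0.42 in female and 0.71 in male cells, from 0.01 and 0.05 with TMM. The other 9 arms together made up 0.39% to 1.39% of a library.

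**Figure D3:**
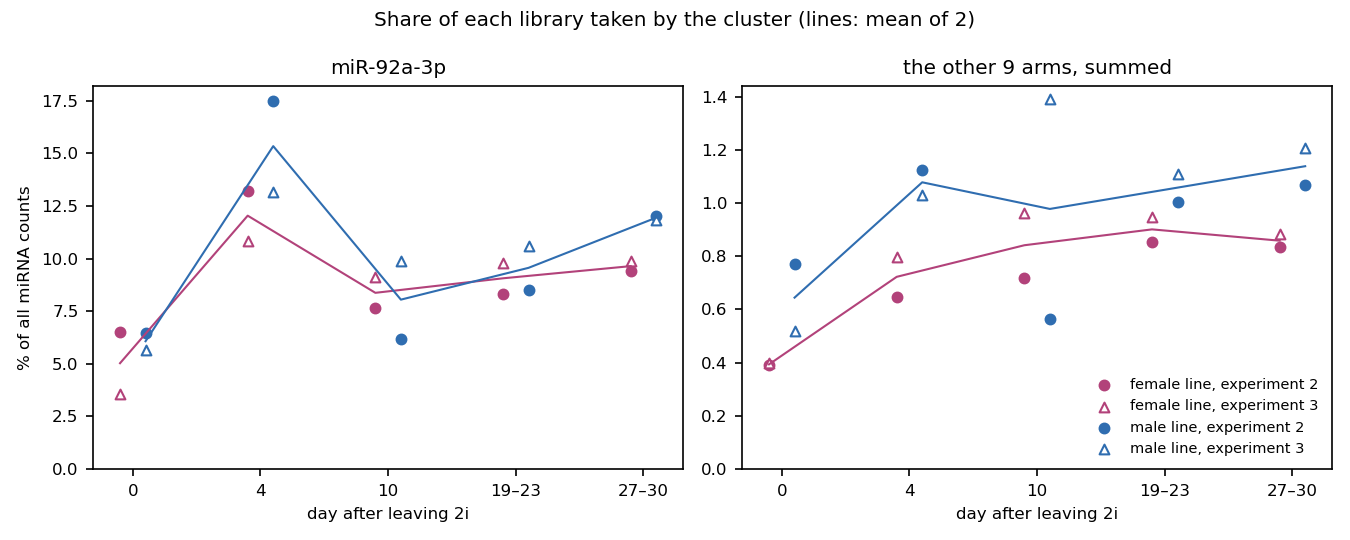
Share of all miRNA counts (%) taken by miR-92a-3p (left panel) and by the other 9 arms summed (right panel) in each library, by day after leaving 2i, female left of male; circles are experiment 2, triangles experiment 3, and lines join means of 2. In each line miR-92a-3p takes its largest shares at day 4 (10.86% to 17.51% over both), and the other 9 arms together take at most 1.39%.

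The arms of miR-18a were called at several stages after day 0, the guide in female cells and the passenger in both lines. miR-18a-5p, the guide, had in female cells 182 and 225 CPM at day 0, 373 and 512 CPM at day 4, 372 and 583 CPM at day 10, 487 and 550.5 CPM at days 19 to 23 and 524 and 501 CPM late. All 8 female libraries after day 0 were above both at day 0. Its female change was 1.23 ± 0.40 at day 10 (edgeR adjusted p = 0.0248), 1.35 ± 0.40 at days 19 to 23 (adjusted p = 0.0143) and 1.33 ± 0.40 late (2.52-fold, adjusted p = 0.0144). These 3 calls held under all 9 other settings, and each was lost without 3 or 4 of the 20 single libraries. The late call was lost without the female day 0 library of experiment 2 (1.19, edgeR adjusted p = 0.0821) or 3 (1.35, adjusted p = 0.0674), or the female late library of experiment 2 (1.27, adjusted p = 0.075) or 3 (1.26, adjusted p = 0.0688). Male cells had 386 and 296 CPM at day 0, 562 and 744 CPM at day 4, 283 and 686 CPM at day 10, 507 and 544 CPM at days 19 to 23 and 537 and 603 CPM late. Except at day 10, the later male groups did not overlap with day 0, but the largest change, 0.94 ± 0.40 at day 4, did not pass (edgeR adjusted p = 0.071), though it did without the male day 10 library of experiment 3 (0.94, adjusted p = 0.0338).

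miR-18a-3p, the passenger of the same hairpin, had in male cells 58.7 and 57.4 CPM at day 0, 214 and 192 CPM at day 4, 73.4 and 160.0 CPM at day 10, 113 and 151 CPM at days 19 to 23 and 161 and 163 CPM late. All male libraries after day 0 were above both at day 0. The male change was 1.81 ± 0.39 at day 4 (3.5-fold, edgeR adjusted p = 0.00211), 1.18 ± 0.38 at days 19 to 23 (adjusted p = 0.0262) and 1.48 ± 0.38 late (2.79-fold, adjusted p = 0.0077). The late call held under all 9 other settings, and among single libraries was lost without the male late library of experiment 2 alone (1.33, edgeR adjusted p = 0.0593). Female cells had 68.7 and 51.7 CPM at day 0, 135 and 148 CPM at day 4, 99.9 and 156 CPM at day 10, 131.5 and 139.8 CPM at days 19 to 23 and 136 and 132 CPM late. Again no later library was in the day 0 range. The female late change was 1.15 ± 0.38 (2.23-fold, edgeR adjusted p = 0.0229). It held under all 9 other settings and without 10 of the 20 single libraries; the other 10 gave changes of 0.81 to 1.09, with adjusted p from 0.0501 to 0.213, the highest without the female day 0 library of experiment 3.

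Late against day 0, 3 of 10 arms rose in female cells (both of miR-18a, and miR-92a-1-5p), where 43.5% of all miRNAs were called (24.1% higher, 19.4% lower). In male cells 1 of 10 rose (miR-18a-3p), where 40.7% were called (19.6% higher, 21.2% lower). None of the 10 arms fell in either line. The shares of arms that rose are near or below that background, while the median change of the 10 arms was 0.58 in female and 0.42 in male cells, beside 0.01 and 0.05 over all miRNAs. With total-count scaling the balance over all miRNAs was 234 higher and 122 lower in female cells (196 and 158 with TMM) and 233 and 105 in male cells (159 and 172 with TMM). Female miR-92a-1-5p, at 1.35 ± 0.51, passed narrowly (edgeR adjusted p = 0.045) and not with RLE scaling (1.26, adjusted p = 0.0505), without a filter (1.32, adjusted p = 0.058) or without any 1 of 12 single libraries (edgeR adjusted p from 0.0551 to 0.202).

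At the stages in between, the counts were similar. At day 10, 4 arms rose in female cells (both of miR-18a, miR-19a-3p and miR-92a-1-5p), where 40.1% of all miRNAs were called (21.3% higher, 18.8% lower). Upper-quartile scaling gave 222 higher and 115 lower there, against 173 and 153 with TMM. Without either female day 10 library, or the female day 0 library of experiment 3, 0 of the 4 passed with edgeR. In male cells edgeR called 0 arms at day 10, with 2 at an unadjusted p under 0.05 and 2 called by DESeq2, where edgeR called 33.7% of all (16.7% higher, 17% lower). At days 19 to 23, 2 arms rose in female cells, both of miR-18a, where 40.5% of all were called (21.2% higher, 19.3% lower). In male cells miR-18a-3p alone rose, a call lost with the male line fitted alone (1.14, edgeR adjusted p = 0.0786) and without 8 of 20 single libraries, where 34.3% were called (15.9% higher, 18.5% lower). Total-count scaling gave 253 higher and 116 lower at female days 19 to 23 (172 and 157 with TMM, 228 and 132 with upper quartiles), and 222 and 99 at male days 19 to 23 (129 and 150 with TMM). The male day 10 libraries lay far apart, with experiment 2 below experiment 3 in 9 of 10 arms. For miR-20a-5p they had 381 and 1209.8 CPM.

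miR-17-5p and miR-20a-5p carry the seed of the miR-106 and miR-93 guides, which overlaps that of the miR-290 and miR-302 families of stem cells. In female cells miR-17-5p had 872 and 898 CPM at day 0, 1290.5 and 1264.5 CPM at day 4 and 1403 and 1263 CPM late, with no overlap between day 0 and these later stages. In male cells it had 1611 and 954 CPM at day 0, 2359 and 1754 CPM at day 4 and 1376 and 1846 CPM late, and late overlapped with day 0. Its day 4 change was 0.53 in female cells (95% interval -0.26 to 1.32, edgeR adjusted p = 0.273) and 0.68 in male cells (-0.11 to 1.47, adjusted p = 0.153). Both intervals include no change as well as more than a doubling. miR-20a-5p had 487 and 676 CPM at day 4 against 370 and 530.4 CPM at day 0 in female cells, and 907 and 893 CPM at day 4 against 777 and 487 CPM at day 0 in male cells. The female groups overlapped and the male ones did not, and the intervals of the change were -0.61 to 1.34 and -0.46 to 1.49. With all libraries the passengers did not pass either, with day 4 changes for miR-17-3p of 0.47 in female and 0.53 in male cells (SE 0.35 each) and for miR-20a-3p of 0.37 and 1.12 (SE 0.55 each). The male day 0 libraries of miR-20a-3p had 52.3 and 15.6 CPM, and the change was 1.91 without the one of experiment 2 (edgeR adjusted p = 0.0326).

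miR-19a-3p and miR-19b-3p carry the miR-19 seed. No other of the 853 miRNAs matched to a RefSeq sequence shared it. miR-19a-3p had 765 and 755 CPM at day 4 against 346 and 303 CPM at day 0 in female cells, and 999 and 858 CPM at day 4 against 586 and 306 CPM at day 0 in male cells. Neither pair of groups overlapped. Late it had 625 and 603 CPM in female and 664 and 823 CPM in male cells, with changes of 0.92 ± 0.37 (edgeR adjusted p = 0.055) and 0.74 ± 0.37 (adjusted p = 0.121). With total-count scaling both passed, at 1.33 in female (edgeR adjusted p = 0.0254) and 1.42 in male cells (adjusted p = 0.0214). With TMM the female one passed without the male day 10 library of experiment 3 (0.92, edgeR adjusted p = 0.0371), and the male one without the male day 0 library of experiment 2 (1.24, adjusted p = 0.0477). miR-19b-3p, whose counts can come from both loci, had in female cells 1687 and 1739 CPM at day 0, 3491 and 2891 CPM at day 4, 2814 and 1962 CPM at day 10, 1634 and 2151 CPM at days 19 to 23 and 2064 and 1971 CPM late. Male cells had 3626 and 2782 CPM at day 0, 4310 and 3162 CPM at day 4, 3456.5 and 3386 CPM at day 10, 2414.5 and 2267 CPM at days 19 to 23 and 2080 and 2597 CPM late. Late libraries were thus above day 0 in female cells and below it in male cells. Neither change passed (0.24 ± 0.30, edgeR adjusted p = 0.545, and -0.45 ± 0.30, adjusted p = 0.237), nor did the difference between them, 0.69 with a 95% interval of -0.20 to 1.58 (edgeR interaction, adjusted p = 0.518).

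Between the lines, 1 of 10 arms was called over the average of the 5 stages, where 18.5% of all miRNAs were called (13.9% higher and 4.55% lower in female cells). This was miR-19b-3p, with a log2 difference of -0.43 ± 0.13, or 0.74-fold, female over male (edgeR adjusted p = 0.0347). The fitted difference was negative at each of the 5 stages, and largest at day 0, where 1687 and 1739 CPM in female cells stood against 3626 and 2782 CPM in male cells (-0.90 ± 0.30, edgeR adjusted p = 0.0749). The averaged call was lost with the experiment of each line as a block (-0.45, edgeR adjusted p = 0.193) and without a filter (-0.47, adjusted p = 0.0625). It was also lost without the female library of day 0 experiment 2 (-0.43, edgeR adjusted p = 0.0554), day 4 experiment 3 (-0.41, adjusted p = 0.0654) or days 19 to 23 experiment 2 (-0.40, adjusted p = 0.0781). The other 9 arms also had a difference below 0 but did not pass. The median of the 10 was -0.28, beside 0.12 over all miRNAs. The balance over all miRNAs was 113 higher and 37 lower, but 56 and 56 with RLE scaling, 49 and 54 with total counts and 40 and 60 with upper quartiles.

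At day 0 alone, edgeR called 0 arms between the lines, with 1 at an unadjusted p under 0.05 and 1 called by DESeq2, where edgeR called 8.73% of all miRNAs (6.64% higher, 2.09% lower). This was 54 higher and 17 lower, against 49 and 35 with upper-quartile scaling. Late, edgeR called 0 arms and 0% of all miRNAs, with 0 arms at an unadjusted p under 0.05 and 0 called by DESeq2. The changes from day 0 were also tested for a difference between the lines. It passed for 0 of 10 arms at day 4 or late by edgeR or DESeq2, with 0 at an unadjusted p under 0.05, where edgeR called 0% of all miRNAs at day 4 and 0.369% late. For miR-92a-1-5p the female change minus the male one at day 4 was 0.65 ± 0.72, so with 2 libraries per group these tests do not show equal changes.

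Ratios of 2 arms within a library do not depend on scaling. They were compared between the 4 later and the 4 day 0 libraries of both lines with an exact two-sided permutation test, in which 0.0286 is the smallest p possible. The test took no account of line or experiment and treated the libraries as exchangeable. Libraries of 1 stage and experiment deviated together between the lines (median correlation 0.40), so n = 4 does not stand for 4 independent replicates. Of 11 planned and 23 added ratios, 0 passed after adjustment, and the smallest adjusted p was 0.314 among the planned and 0.0821 among the added ones. Because of the smallest possible p, a single ratio could not pass on its own, however large its shift. Most ratios of a set, planned or added, would have had to reach that p together, so this result does not decide whether any 1 ratio changed. miR-92a-1-5p over miR-17-3p, passengers of the last and the first hairpin, had a log2 ratio of 3.65 ± 0.54 at day 4 against 2.26 ± 0.23 at day 0 (SD, n = 4 each, exact permutation p = 0.0286), 2.63-fold more. As a plain ratio it was 16.8 and 14.4 at female day 4 against 4.79 and 4.30 at female day 0, and 14.4 and 7.25 at male day 4 against 6.04 and 4.25 at male day 0. Late it was 8.32 and 8.77 in female and 8.80 and 6.13 in male cells, each above all 4 day 0 values. For the guides of the same hairpins the groups overlapped: miR-92a-3p over miR-17-5p was 6.80 ± 0.55 at day 4 against 5.93 ± 0.43 at day 0 (log2, SD, n = 4 each, exact permutation p = 0.0571), and 5.91 ± 0.22 late. Within each line and experiment, however, this ratio was higher at day 4 than at day 0 in 4 of 4 pairs. In experiments 2 and 3 it was 7.54 and 6.68 at day 4 against 6.48 and 5.54 at day 0 in female cells, and 6.75 and 6.21 at day 4 against 5.63 and 6.07 at day 0 in male cells. With 4 pairs no paired permutation test can reach 0.05, and none was run.

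At day 4 the guides of the hairpins between them shifted less against miR-17-5p than miR-92a-3p did, by mean log2 difference from day 0. The largest of these shifts was that of miR-19a-3p, higher by 0.56 without overlap (n = 4 each, exact permutation p = 0.0286). miR-18a-5p over miR-17-5p was higher by 0.57 on the log2 scale late than at day 0, with libraries at -1.61 to -1.33 late against -2.26 to -1.69 at day 0 (n = 4 each, exact permutation p = 0.0286). Late against day 0, miR-19a-3p over miR-17-5p was higher by 0.39 and miR-19b-3p over miR-17-5p lower, at 0.57 ± 0.06 late against 1.15 ± 0.28 at day 0, both without overlap (n = 4 each, exact permutation p = 0.0286 for each). miR-20a-5p over miR-17-5p differed by 0.04, with overlap. With the lines pooled, guide over passenger ratios of a hairpin overlapped between late and day 0 except for miR-17-5p over miR-17-3p, at 2.54 ± 0.16 late against 2.31 ± 0.10 at day 0 (n = 4 each, exact permutation p = 0.0286). Between day 4 and day 0 the exception was miR-19a-3p over miR-19a-5p, at 4.67 ± 0.38 against 5.55 ± 0.33 (n = 4 each, exact permutation p = 0.0286). miR-92a-3p over miR-92a-1-5p was 5.46 ± 0.18 late against 5.98 ± 0.54 at day 0, so the guide was far in excess at both stages.

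**Figure D4:**
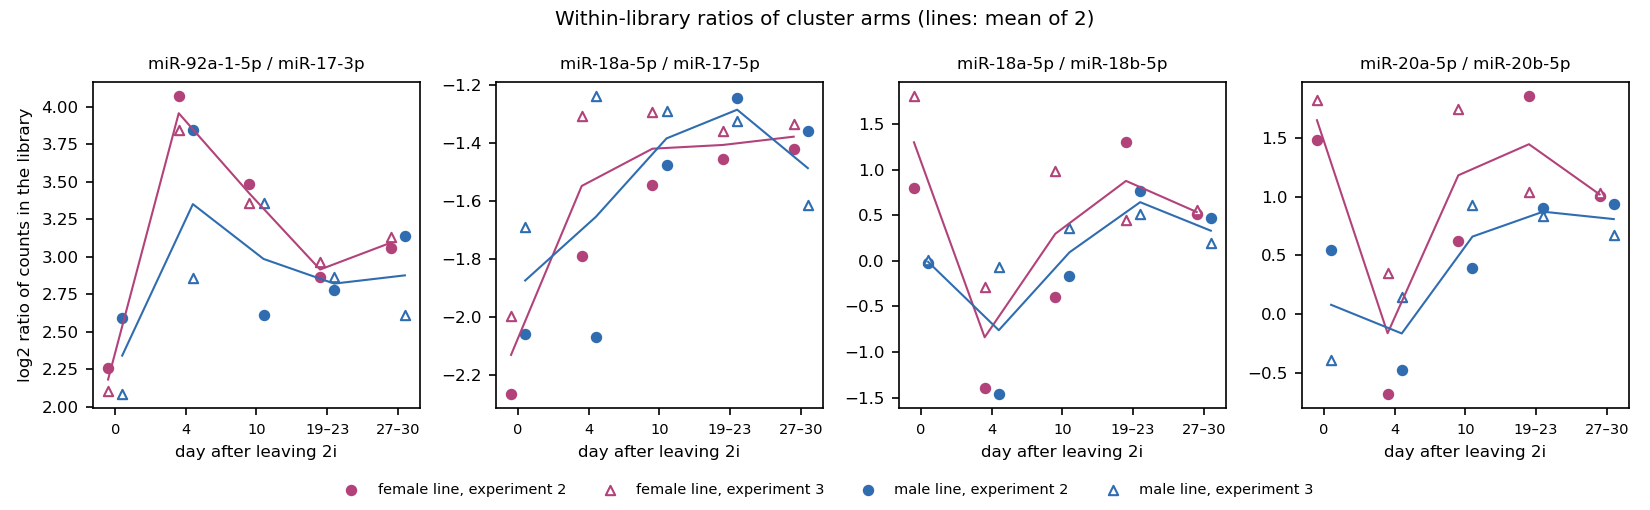
Log2 ratio of the counts of 2 arms in each library, by day after leaving 2i, female left of male, for miR-92a-1-5p over miR-17-3p, miR-18a-5p over miR-17-5p, miR-18a-5p over miR-18b-5p and miR-20a-5p over miR-20b-5p; lines join means of 2. The first ratio averages 3.65 at day 4 against 2.26 at day 0, and the third averages -0.80 at day 4 against 0.65 at day 0.

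The X-linked cluster, read from its 10 arms, showed 10 of 10 higher at female day 4, with a median log2 change of 2.60, where 24.5% of all miRNAs were higher. At male day 4, 4 of 10 were higher, with a median of 1.05, where 25.1% of all were higher. The difference between the female and the male change passed for 0 of 10 at day 4 (smallest edgeR adjusted p = 0.237), with 7 at an unadjusted p under 0.05. At day 0, 7 of 10 were lower in female than in male cells (median log2 difference -1.99), where 2.09% of all miRNAs were lower. At day 4, 0 of 10 were called between the lines (median -0.36), with 0 at an unadjusted p under 0.05, where 5.04% of all were called. X-linked miR-18b-5p, with the seed of miR-18a-5p, had 978 and 624 CPM at day 4 against 105 and 64.4 CPM at day 0 in female cells (3.25 ± 0.51, edgeR adjusted p = 0.000176). In male cells it had 1542 and 778 CPM at day 4 against 393 and 295 CPM at day 0 (1.75 ± 0.48, edgeR adjusted p = 0.00901). miR-18a-5p over miR-18b-5p had a log2 ratio of -0.80 ± 0.73 at day 4 against 0.65 ± 0.86 at day 0 (SD, n = 4 each, exact permutation p = 0.0286), a difference of -2.14 within female and -0.75 within male cells. In male cells it went from -0.03 to -1.46 in experiment 2, but only from 0.005 to -0.06 in experiment 3. Late it differed from day 0 by -0.21, with overlap (exact permutation p = 0.714). The other ratios of a chromosome 14 arm to its X-linked relative overlapped between day 4 and day 0. Their differences were -1.81 to -1.08 in female and -0.24 to 0.80 in male cells. Late, 9 of 10 X-linked arms were higher than at day 0 in female cells, where 24.1% of all miRNAs were. In male cells edgeR called 0 of 10, with 1 at an unadjusted p under 0.05, where 19.6% of all were higher. The difference between the changes again passed for 0 of 10 (smallest edgeR adjusted p = 0.176), with 7 at an unadjusted p under 0.05. In the miR-106b-25 cluster, 1 of 6 arms rose and 1 fell at female day 4, where 24.5% of all miRNAs were higher and 14.6% lower. At male day 4, 0 rose and 2 fell, where 25.1% of all were higher and 18.3% lower. The arm that fell in both was miR-93-5p, a guide with the miR-17-5p seed, at -1.43 ± 0.34 in female cells (edgeR adjusted p = 0.00458) and -2.13 ± 0.35 in male cells (adjusted p = 0.00036).

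Counts were also summed by seed, with all counts of miR-92a-3p taken as the cluster's. On average, the cluster held a larger part of the miR-17-5p and miR-92a-3p seeds at day 4 than at day 0, and a smaller part of the miR-18a-5p seed. Of counts with the miR-18a-5p seed, miR-18a-5p made up 36.3% ± 12.3 at day 4 against 70.6% ± 10.1 at day 0 in female cells, and 37.8% ± 15.7 against 49.8% ± 0.375 in male cells (SD, n = 2 each), the rest being miR-18b-5p. The male fall rested on experiment 2, with 26.7% at day 4 against 49.5% at day 0. In male experiment 3 the share was 48.9% against 50.1%. Of all counts with the miR-17-5p seed, miR-17-5p and miR-20a-5p made up 28.1% ± 3.69 at day 4 against 13.2% ± 4.21 at day 0 in female cells (SD, n = 2 each). In male cells they made up 29.3% ± 2.08 at day 4 against 8.04% ± 3.62 at day 0. All 6 miRNAs with this seed together took 0.457% ± 0.103 of all miRNA counts at day 4 against 0.916% ± 0.386 at day 0 in female cells, and 0.839% ± 0.0447 against 2.08% ± 0.36 in male cells. The largest of them, miR-93-5p, had 5417 and 3466 CPM at male day 4 against 17532 and 21348 CPM at male day 0.

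Of all counts with the miR-92a-3p seed, also borne by miR-25-3p, miR-92b-3p, miR-363-3p, miR-367-3p and miR-32-5p, miR-92a-3p made up 89.3% ± 0.794 at day 4 against 76.6% ± 0.912 at day 0 in female cells. In male cells it made up 86.6% ± 1.47 at day 4 against 72.5% ± 2.33 at day 0. Here the whole set was larger too, at 13.5% ± 1.75 of all counts at day 4 against 6.55% ± 2.66 at day 0 in female cells and 17.7% ± 3.23 against 8.37% ± 0.505 in male cells. These shares, with 2 libraries per group, were not tested.

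**Figure D5:**
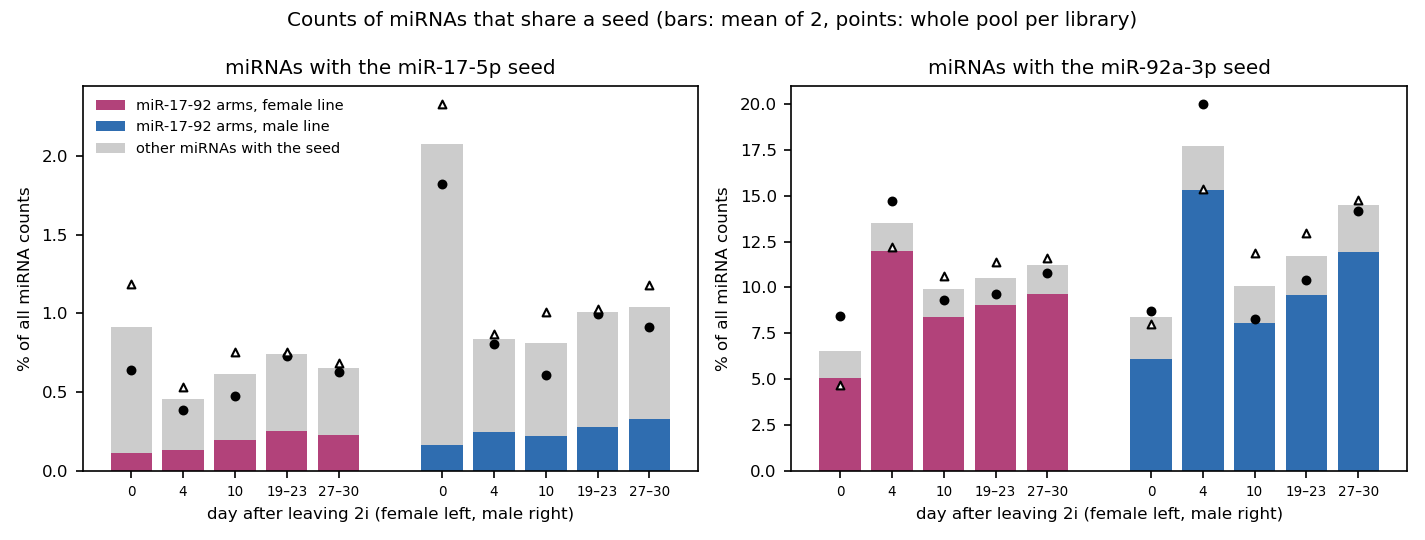
Share of all miRNA counts (%) taken by miRNAs with the miR-17-5p seed (left panel) and the miR-92a-3p seed (right panel), by day after leaving 2i, with the female bars in the left and the male bars in the right of each panel. Coloured parts are miR-17-92 arms, grey parts other miRNAs with the seed, bars are means of 2 and points the whole set in each library (circles experiment 2, triangles experiment 3); the left set is largest at male day 0 (2.08%), mostly grey, and the right set is mostly miR-92a-3p and in each line largest at day 4.

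The 10 arms varied together to an unequal degree. Over the 20 libraries, the Pearson correlation of log2 CPM between 2 arms lay between 0.16 (miR-18a-3p and miR-19b-3p) and 0.87, with a median of 0.66 over 45 pairs. All arms share the depth, stage and line of a library, so this is a description. Among 323 other miRNAs with a mean of at least 50 CPM, the profile most like the mean of the centred members was that of X-linked miR-18b-5p (r = 0.876 over 20 libraries). It was followed by miR-1947-5p (0.783), miR-106a-5p (0.758), miR-363-5p (0.749) and miR-679-5p (0.749). Of the Mir17hg arms outside the 10, miR-19a-5p, at a mean of 22.7 CPM, rose at day 4 by 2.41 ± 0.47 in female cells (edgeR adjusted p = 0.000956) and 1.71 ± 0.45 in male cells (adjusted p = 0.00767). In female cells it was also higher than at day 0 at day 10 (2.38, edgeR adjusted p = 0.000962), days 19 to 23 (2.27, adjusted p = 0.00123) and late (2.24, adjusted p = 0.0014). Neither this arm nor miR-19b-1-5p was called against day 0 in male cells after day 4. miR-19b-1-5p, at a mean of 5.65 CPM, had day 4 changes of 1.30 ± 0.61 in female cells (edgeR adjusted p = 0.102) and 1.64 ± 0.61 in male cells (adjusted p = 0.0426).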

How the data were processed

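The deposited tables hold whole-number counts per miRNA and library, 1 table per line, made by the authors from Illumina small RNA libraries, per the labels' protocols. The submitters' processing notes name CASAVA 1.8.2, DESeq2 and the builds GRCm38 and mm10. Aligner, annotation and the handling of reads with several matches are unknown here, which bears on near-identical arms. The deposited normalized signal (the authors' counts over size factors) and the authors' variance-stabilized log2 values were not tested. Groups follow line and day in the labels. The fit used edgeR 4.0.16 (R 4.3.3; quasi-likelihood F test, TMM, filterByExpr, 10 groups with 1 coefficient each, 813 miRNAs with 99.997% of counts, 10 residual degrees of freedom) with Benjamini-Hochberg adjustment within each contrast at 0.05, and was tested on simulated data. Ratios used log2 of counts plus 0.5 (SciPy 1.17.1). Intervals cover 95%. Replicates differed far beyond counting noise (chi-square per degree of freedom at least 303.6), so none were merged.

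Members and lists were chosen with earlier results of these data known. Named were the 10 members, up to 4 arms of each related list by abundance, those paired with a member in a ratio, and the 5 miRNAs most like the members' mean. Alternatives were RLE, total-count and upper-quartile scaling, keeping all miRNAs, keeping means of 10 CPM or more, DESeq2 1.42.0, the experiment as a block (shared or per line), each line alone, and leaving out each library. The experiment in the labels gives the pairing. Deviations from group means within an experiment correlated at a median of 0.40 between lines at 1 stage (5 of 5 pairs over 0.1) and 0.09 between stages of a line (9 of 20). Contrasts of days 10 and 19 to 23 against day 4 and of late against day 10, ratios between hairpins and ratios at day 4 were added after seeing the data.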

Additional observations from a re-analysis of the deposited data

How the results depend on the processing

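Counts of arms called, out of 10, moved by over 1.5 times under these settings. Total-count scaling gave 2 at female day 4 (6 with TMM), 6 at female days 19 to 23 (2), 5 at female late (3), 1 at male day 10 (0), 2 at male days 19 to 23 (1) and 3 at male late (1), all against day 0. Against day 4 it gave 0 at days 19 to 23 in female (1) and male cells (1) and 0 at male day 10 (1). Upper-quartile scaling gave 2 at female day 4, 4 at female days 19 to 23, 1 between the lines at day 0 (0), and 0 against day 4 at female days 19 to 23 and male day 10. RLE scaling gave 1 at male day 10 against day 0, 0 at male day 10 against day 4 and 1 between the lines at day 0. Without a filter there were 2 at female day 4, 1 at female days 19 to 23, 0 at male day 10 against day 4 and 0 between the lines on average (1). With a mean of at least 10 CPM there were 2 at female day 4, 0 against day 4 at female days 19 to 23 and male day 10, and 1 between the lines at day 0. DESeq2 gave 2 at male day 10 against day 0, 0 at male day 10 against day 4, 2 between the lines on average and 1 at day 0. Each line alone gave 3 at female day 4, 2 at male day 4 (4), 0 at male days 19 to 23, and 0 against day 4 at female days 19 to 23 and male day 10. With the replicate block, shared or per line, there was 1 late against day 4 in female (0) and male cells (0) and 1 at female day 10 against day 4 (0); the block per line gave 0 between the lines on average, and the blocks changed no other count by as much. The causes were not tested.

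Leaving out 1 library gave, against day 0, 0 to 6 arms at female day 4 (0 without the day 0 library of experiment 3), 0 to 4 at female day 10, 0 to 3 at female days 19 to 23, 0 to 4 at female late, 1 to 5 at male day 4, 0 to 2 at male day 10, 0 to 1 at male days 19 to 23 and 0 to 3 at male late. Against day 4 it gave 0 to 1 at each later female stage, and 0 to 1 at male day 10, 0 to 2 at male days 19 to 23 and 0 to 1 at male late. Between the lines it gave 0 to 5 on average (5 without male day 10 experiment 2, 3 without male day 0 experiment 3), 0 to 1 at day 0 and 0 to 0 late, and 0 to 0 for differences between the changes and for late against day 10. Ratios without 1 library cannot pass, since 3 against 4 allows no exact p under 0.0571. Of 6040 comparisons of an arm's change with an alternative, the sign differed in 572, none with a call on either side.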
